A study of Bos taurus with 28 samples.

Results

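Subcutaneous adipose tissue of dairy cows in late pregnancy was described from the 9 PreP libraries, 9 of the 28 RNA-seq libraries of the series, 1 for each of 9 of its 11 cows. The libraries were those whose labels give the time point PrePartum, and the genes described were the 17722 of the 24616 listed for which any of these libraries held 3 or more reads. All cows were healthy multiparous Holstein cows, non-lactating and pregnant, and fed the same close-up diet. The paper describes no treatment, and its cows were blocked by body condition, earlier milk yield and parity. The labels do not give the blocks. The right flank was biopsied 11 days before the expected calving date, and the later biopsies of the same cows, taken 6 days (PP1) and 13 days (PP2) after parturition, were used here to check the libraries and to see whether a cow's level at PreP came back. The series' design text names mammary glands as the tissue, while every sample label names adipose tissue. Gene symbols could be attached to 1715 of the 17722 genes, so the named genes below are those of highest, most variable or most even expression among the genes with a symbol, not among all genes.

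Adipocytes hold most of the fat of this tissue in a large lipid droplet, which they fill by esterifying fatty acids to glycerol and empty through a chain of lipases. Between the adipocytes lie preadipocytes and fibroblasts, which make the collagen-rich matrix, blood and lymph vessels with their mural cells, resident macrophages and lymphocytes. In the last weeks of pregnancy a cow is still laying down or holding these reserves, and the flank depot is the one usually biopsied. The level of a gene in a biopsy of whole tissue depends on how many cells of each type it held and on how much RNA each cell made, and fewer cells of a type cannot be told apart from less RNA per cell.

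The PreP libraries held between 15293154 and 20818965 counted reads, so that 3 reads, the smallest number treated here as a level, amounted to 0.135 to 0.176 CPM, the unit in which a gene's reads are given after all libraries are brought to a common size. Spearman correlations between pairs of libraries over all genes kept had a median of 0.968, and the library of cow B5169 had the lowest median correlation with the others, 0.950. Some libraries stood apart in ways their labels do not give. The gene ENSBTAG00000047042, which has no symbol here, had between 78.0 and 112 CPM in the 6 libraries of B4886, B4987, B5129, B5102, B5064 and B5176 and at most 0.310 CPM in those of B5169, B5165 and B5090. With these 3 libraries apart, 10 genes were more than 4-fold higher in every library of the 6 than in any of the 3, against a floor of 0.3 CPM, and 1 gene was more than 4-fold higher in every library of the 3. RRP12, a factor of ribosome assembly and the 1 member of these 11 genes with a symbol, had 61.0 to 97.0 CPM in the 6 libraries and 7.81 to 11.5 CPM in the 3, and was named after its values were seen. Over all 28 libraries 16 had at least 10 CPM of ENSBTAG00000047042 and 12 had less, 7 of the 10 genes kept the same separation, and 6 cows had libraries on both sides. The labels give no batch, so these are called the 6-library set and the 3-library set, and their origin was not tested.

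The PreP library labelled B5102 differed from the later libraries of that cow in genes where the other cows did not. Genes whose libraries fell into a high and a low state, with a gap of at least 2.5 on the log2 scale of CPM + 0.1 somewhere in the ordered 28 libraries, numbered 30, of which 5 followed the library sets and 25 did not. Of these 25, 14 were chosen because they were in the same state in every library of each other cow with more than 1 library, and libraries of B5102 took no part in that choice. In these 14 genes the PP1 and PP2 libraries of B5102 were in the same state in 14 of 14, whereas its PreP library matched them in 7 of 14. Over all 25 genes the picture was less sharp: the PreP library labelled B5102 matched PP1 in 8 and PP2 in 16, and PP1 matched PP2 in 17, so that there the PP1 library stood apart as well. In the other cows with all 3 biopsies PreP matched PP1 in 23 or 24 of the 25, and PreP matched PP2 in 17 (B4886) to 25. ENSBTAG00000009656 had 1 read in the PreP library labelled B5102 against 233 reads in PP1 and 326 in PP2, and ENSBTAG00000021565 had 579 reads in it against 0 in PP1 and 2 in PP2. In ENSBTAG00000011985 the PreP library had 2 reads against 103 in PP1 and 191 in PP2, and in ENSBTAG00000039664 it had 103 reads against 1 in PP1 and 0 in PP2. These genes were picked for their contrast and named after their values were seen. Against the cows other than B5102, the same library matched between 5 and 11 of the 14 genes, the most with B5169, so it matched no cow of the series in full. It is called the library labelled B5102 throughout, and the main results in which it is extreme are also given without it.

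**Figure D1:**
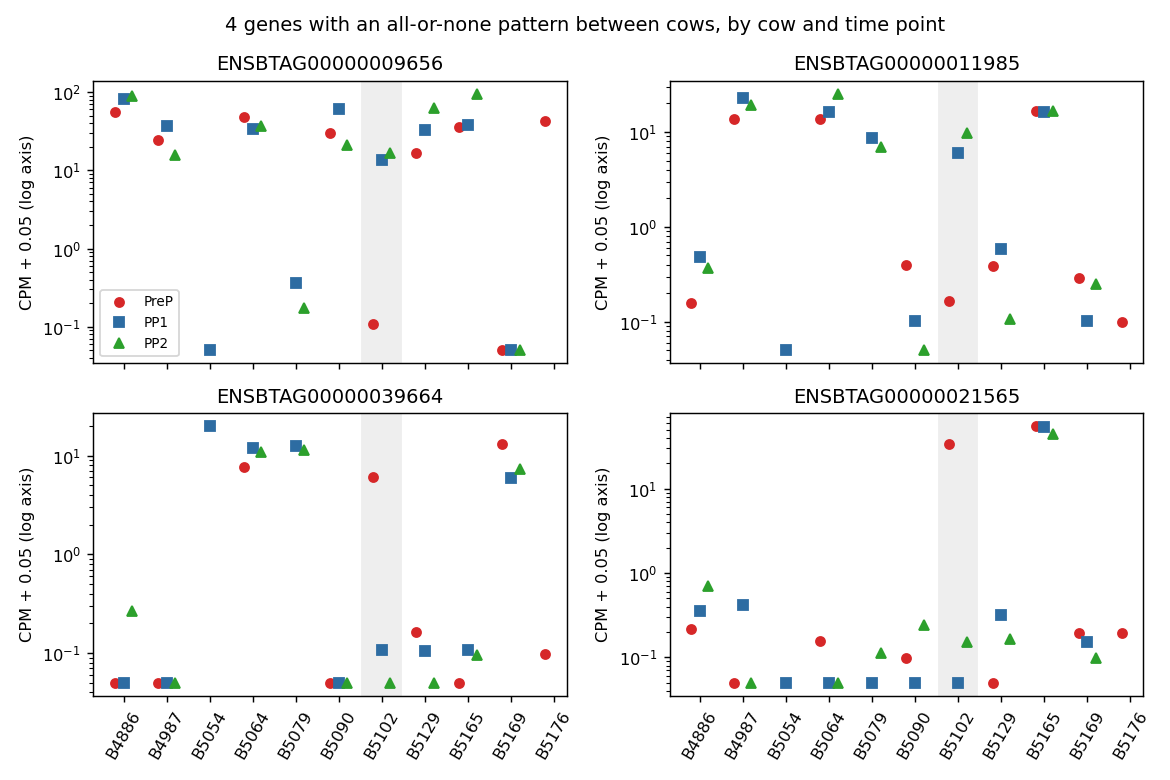
CPM + 0.05 (log axis) of 4 genes in the 28 libraries, by cow, with circles for PreP, squares for PP1 and triangles for PP2; the grey band marks the libraries labelled B5102. In the other cows with more than 1 library all points of a gene lie together, while in B5102 the PreP point lies apart from both later points in each of the 4 genes.

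The tissue label was checked against marker genes. All 12 of the adipocyte genes on the list that had a symbol (of 19 listed) were read at a mean of at least 4.99 CPM, with a median of 51.4 CPM over members, against 11.2 CPM over all genes kept. The genes that define adipocytes most closely, among them those for adiponectin, leptin and perilipin, had no symbol here and were not analysed. PPARG, the transcription factor that drives fat cell formation, had 126 CPM in the lowest library, a median of 160 and 263 in the highest, with a mean of 172 ± 45.7 CPM (SD, n = 9). RBP4, the retinol carrier secreted by adipocytes and liver, ranged from 742 to 3191 CPM around a median of 1370.3. The milk protein gene CSN2 had 0 reads in all 9 libraries, and the epithelial keratins KRT8 and KRT18 had means of 0.628 and 0.211 CPM, with highest values of 1.46 and 0.527. Of the epithelial and milk list, 3 of the 4 members with an ID were kept and 0 reached a mean of 1 CPM.

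Marker genes of other cell types were also read, at levels that differed between lists. Levels of different genes do not order the amounts of the cell types. All 6 endothelial genes with an ID were kept, at a median of 125 CPM, and KDR, the VEGF receptor of blood vessels, had 157 to 293 CPM. The 3 mural genes ran from KCNJ8 at 25.5 ± 7.79 CPM to PDGFRB, the receptor that marks pericytes, at 467 ± 138 CPM (SD, n = 9). The 5 fibroblast genes had a median of 349 CPM, led by the microfibril gene FBN1 at 1295 ± 587 CPM and the matrix protein tenascin XB (TNXB) at 1136 ± 426 CPM. The 9 macrophage genes had a median of 33.2 CPM, with the lectin LGALS3 highest at 209 ± 49.1 CPM. Lymphocyte genes lay lower, with 8 of 11 members at 1 CPM or more, a median of 3.43 CPM and the T cell factor TCF7 highest at 18.3 ± 6.26 CPM. Of the neutrophil list 2 of 4 members were kept, LTF at 1.44 ± 0.495 CPM and PGLYRP1 at 0.254 ± 0.182 CPM. Skeletal muscle genes had a median of 0.756 CPM over 13 members, although ALPK3, a kinase also read in heart and other tissues, reached 25.4 ± 10.6 CPM, and their sum ran from 34.9 CPM in B5176 to 76.0 CPM in B5169. In B5169 ALPK3 had 46.8 CPM and SRL 15.4 CPM of that sum. The muscle glycogen phosphorylase PYGM had 0.690 to 2.99 CPM and was lowest in B5169. Of the erythroid list the band 3 gene SLC4A1 had a mean of 0.0309 CPM, under the level of 3 reads. The 1 Schwann cell gene with an ID stayed under the filter.

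The most abundant transcripts belonged to few genes. Of the 17722 genes, 13349 had a mean of at least 1 CPM, 9170 at least 10, 1821 at least 100 and 111 at least 1000. The 10 genes with most reads took 10.3% of all CPM and the 100 with most took 29.2%. None of those 10 and 4 of those 100 carried a symbol, and the gene with most reads, ENSBTAG00000043561, had a mean of 30982 CPM, followed by ENSBTAG00000043560 at 12225 CPM. Both had their lowest value in B5169, at 8882 and 6226 CPM, against medians of 32578 and 13629 CPM. A longer transcript gives more reads, and no transcript lengths were used here, so the order of genes by CPM is an order of reads and not of molecules.

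CST3, the secreted protease inhibitor cystatin C, had most reads of the genes with a symbol, at rank 37 of all genes, with 1196 CPM in the lowest library, a median of 2106 and 2957 in the highest. TNS1, which ties integrins to actin, followed at 1788 ± 509 CPM (SD, n = 9), and then RBP4 at 1591 ± 825, FBN1 and TNXB. The next were the actin-binding TAGLN2 at 892 ± 171 CPM, the ribosomal protein gene RPL21 at 806 ± 147 CPM, the ATP synthase subunit ATP5F1A at 782 ± 237 CPM, the ribosomal protein gene RPS12 at 776 ± 134 CPM and the kinesin motor KIF1C at 756 ± 219 CPM. The highest library of TNS1, RBP4 and CST3 was B5169, and that of TAGLN2, ATP5F1A, RPS12 and KIF1C was B5176. FBN1 and TNXB had their lowest values, 459 and 578 CPM, in B5176 and in the library labelled B5102. Neighbours in this order lay within the spread between cows, since the means of neighbouring genes differed by less than the larger of their SDs.

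The spread between cows was taken as the SD of log2 CPM over the 9 libraries, where an SD of 1 corresponds to a typical 2-fold departure from the mean. It had a median of 0.41 over the 13349 genes with a mean of at least 1 CPM, with quartiles of 0.29 and 0.63, and 0.39 over the 1456 of them with a symbol. Counting error alone is smaller: for genes between 10 and 100 CPM the median SD was 0.35, against 0.061 from the number of reads, and between 100 and 1000 CPM it was 0.34 against 0.025. Below 1 CPM the 2 were close, 0.95 against 0.82, so the spread of such genes was not read. An SD over 1 was found in 1081 genes, 8.10% of the 13349, and an SD over 2 in 76. The biological coefficient of variation common to all genes, from edgeR, was 0.400.

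**Figure D2:**
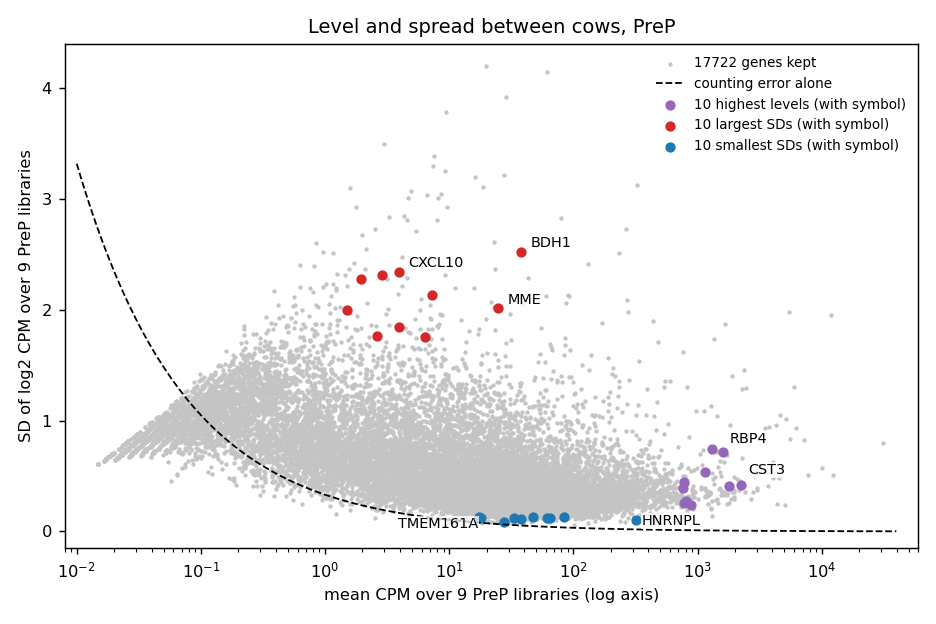
SD of log2 CPM over the 9 PreP libraries against mean CPM (log axis), 1 grey point for each of the 17722 genes; the dashed line is the SD that counting error alone would give, and coloured points are the 10 genes with a symbol of highest level, largest SD and smallest SD. Above 10 CPM nearly all points lie over the dashed line, and TMEM161A, the least variable gene with a symbol, lies close to it.

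The extreme values were unevenly shared among the libraries. Among the 1081 genes with an SD over 1, the lowest value was in B5169 for 478 genes (44.2%) and in B5176 for 248 (22.9%), against 19.6% and 17.1% of the 13349 genes. The highest value was in the library labelled B5102 for 385 genes (35.6%), against 16.1% of the 13349. Without the library labelled B5102, 1014 genes had an SD over 1, without that of B5169 783, without that of B5176 975, and without those of B5169 and B5176 together 561.

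The 10 genes with a symbol of largest SD included BDH1, CXCL10, PADI1, HMGN5, EEA1, MME, C1H21orf91, N4BP2 and GNB4. BDH1, the mitochondrial enzyme that interconverts the ketone bodies acetoacetate and β-hydroxybutyrate, varied most, with an SD of 2.52. It had 84.3 CPM in B4886, 6.03 in B4987, 10.5 in B5129, 20.5 in the library labelled B5102, 42.9 in B5064, 0.789 in B5169, 63.4 in B5176, 1.57 in B5165 and 111 in B5090. Cows therefore lay along the whole range, and the SD was 2.11 without B5169. BDH2, a related dehydrogenase by name, had 17.3 to 30.3 CPM and an SD of 0.28.

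CXCL10, the interferon-induced chemokine that draws T cells, had an SD of 2.34, and of 1.5 without B5165. It had 29.6 CPM in B5165, at most 1.28 CPM in the other 8 libraries and 0 reads in B5176. The perforin gene PRF1 of cytotoxic lymphocytes was also highest in B5165, at 10 CPM, against a median of 1.65, although no other of the 8 lymphocyte genes of at least 1 CPM was highest there and their median stood at only 0.07 on the log2 scale from its mean, and the interferon-induced proteasome subunit PSMB8 had 155 CPM there against a median of 84.3. PADI1, which converts arginine to citrulline in proteins, ran from 0 in B5129 to 8.64 CPM in B4886.

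MME, the membrane peptidase neprilysin found on adipose stromal cells, had 0.543 CPM in B5169, 6.05 in B5165, 9.67 in B5176 and 23.9 to 47.9 in the other 6 libraries. Its SD of 2.02 fell to 1.05 without B5169. HMGN5, a nucleosome-binding protein, had 0 reads in B5176 and 0.0493 CPM in B5169, under the level of 3 reads, and 0.987 to 3.89 CPM in the other 7. EEA1, a tether of early endosomes, had 0.174 CPM in B5176 and 0.592 in B5169 against a median of 3.67 and 27.0 in the library labelled B5102. N4BP2 had 0.116 and 0.247 CPM in the same pair of libraries and 2.24 to 6.63 in the others. Without B5169 and B5176 the SD of HMGN5 was 0.64 instead of 2.28, that of N4BP2 0.58 instead of 1.76 that of EEA1 1.24 instead of 2.14 and that of C1H21orf91 1.24 instead of 2.0, while BDH1 kept 2.18. C1H21orf91 and GNB4 were highest in the library labelled B5102, at 4.26 and 22 CPM against medians of 0.696 and 4.08. Without that library the SD of EEA1 was 1.96, that of C1H21orf91 1.92 and that of GNB4 1.56. GNB4, the last of the 10, had an SD of 1.76, and TTC14, just outside, had 1.73.

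**Figure D3:**
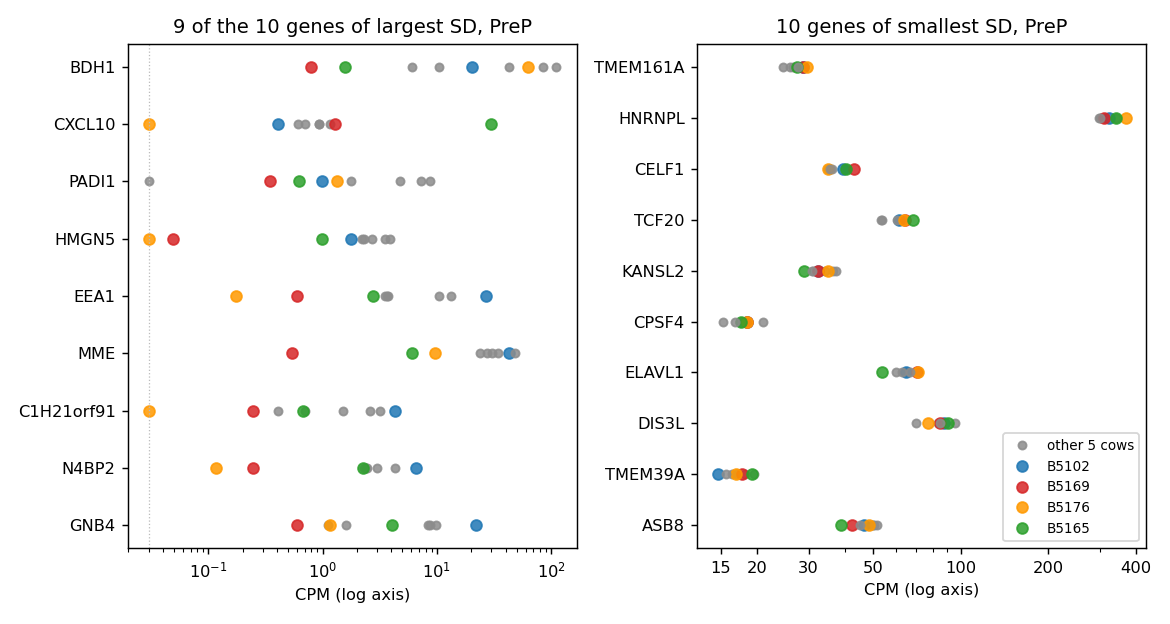
CPM (log axes of different range) of 9 of the 10 genes of largest SD (left) and of the 10 of smallest SD (right) in each PreP library, 1 point a library; 4 libraries are coloured, and values of 0 are drawn at 0.03 on the dotted line. Libraries of B5169 and B5176 lie at the low end of HMGN5, EEA1 and N4BP2, whereas every library of each gene on the right lies within a narrow band.

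At the other end, 847 of the 9170 genes with a mean of at least 10 CPM (9.24%) had an SD under 0.2. TMEM161A, a membrane protein, varied least of those with a symbol, from 24.5 CPM in B4987 to 29.5 in B5176, around a median of 27.5, with an SD of 0.084. Then came HNRNPL, a splicing regulator, at 298 to 368 CPM with an SD of 0.10, and CELF1, another RNA-binding protein, at 35.0 to 43.0 CPM with an SD of 0.11. TCF20, KANSL2, CPSF4, ELAVL1, DIS3L, TMEM39A and ASB8 completed the 10 with SDs of 0.12 to 0.13. CPSF4 belongs to the complex that cleaves and polyadenylates messages, ELAVL1 binds and stabilises messages, and DIS3L is an exonuclease of the cytoplasmic exosome. The rank depended on few values, since ASB8 at the border and PSME3IP1 just outside had the same SD to 2 digits (0.13), and between 2 and 8 of the 10 stayed among the 10 least variable when 1 library was left out, the fewest without B5176. With scaling to total counts the SDs of CELF1, TCF20, DIS3L and TMEM39A rose to between 0.18 and 0.22.

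Genes commonly used as references for quantitative PCR differed in how even they were. HNRNPL had an SD of 0.10, the ribosomal protein genes RPL19 and RPS18 had 0.27 and 0.31, and PGK1, a glycolytic kinase, had 0.46, from 175 CPM in B5165 to 487 in B5176. The 6 members with an ID had a median SD of 0.32, against 0.41 over all genes of at least 1 CPM.

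The genes of lipid synthesis that had a symbol, 18 of 25 listed, were among the more variable. FASN, ACACA, SCD, ELOVL6, GPAM, AGPAT2 and DGAT2 had no symbol here and were not analysed. Their 17 members with a mean of at least 1 CPM had a median SD of 0.69 and 5 had an SD over 1, against a median of 0.41 and 8.10% over all such genes. HSD17B12, which reduces the ketoacyl intermediates of fatty acid elongation, had 14.8 CPM in B5169, 71.8 in B5165, 126 in B5176, 179 in B4987, 194 in B5129, 271 in B5064, 290 in B4886, 359 in the library labelled B5102 and 381 in B5090. INSIG1, the sterol-regulated brake on SREBP, had 47.0 CPM in B5165, 61.7 in B5129 and 84.5 in B5169, a median of 187 and 521 in B5176. PCK1 acts early on the path that leads to the glycerol 3-phosphate of triglycerides. It had 17.4 CPM in B5169 and 46.1 in B5165 against a median of 116 and 194 in the library labelled B5102. The 2 libraries lowest in HSD17B12 were also the 2 lowest in PCK1 and lay among the 3 lowest in INSIG1. Lists of other cell types moved in these libraries too. In B5169, where the median lipid synthesis gene stood at -0.70 on the log2 scale from its mean over the 9 libraries, the median stood at 0.61 for mural genes (3 of 3 highest there), 0.47 for skeletal muscle genes (3 of 6), 0.40 for endothelial genes (3 of 6), 0.36 for macrophage, 0.31 for lymphocyte, 0.06 for adipocyte and 0.01 for fibroblast genes. In B5165, where it stood at -0.34, it was 0.43 for mural, 0.30 for fibroblast, 0.26 for skeletal muscle, 0.10 for endothelial, 0.07 for macrophage, 0.07 for lymphocyte and -0.13 for adipocyte genes. B5169 was the highest library of 20.7% of all genes of at least 1 CPM, and PYGM of the skeletal muscle list was lowest in it. The part of these cell type lists in the levels of the lipid genes was not tested. The SD of HSD17B12 was 1.48 with all libraries and 0.82 without B5169, and that of PCK1 was 1.15 and 0.75. ACAT2, which makes acetoacetyl-CoA for sterols, had 15.2 CPM in B5169 and 92.9 in the library labelled B5102. PGS1, which acts in cardiolipin synthesis, was the most even member, with 38.6 to 55.5 CPM and an SD of 0.19. The list's median SD was 0.53 without the library labelled B5102 and 0.63 without that of B5169. Without the library labelled B5102, larger median SDs included those of the immediate early and stress list, 0.63, and of the fibroblast list, 0.62.

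The growth hormone receptor gene GHR followed another order, with 51.7 CPM in B5169, 69.0 in B5176, 94.3 at the median and 296 in the library labelled B5102, and its SD of 0.72 was 0.48 without the latter. In all, 6 of the 12 adipocyte genes were highest in the library labelled B5102, against 16.1% of all genes of at least 1 CPM, and without it the median SD of the 12 was 0.50 instead of 0.63. BSCL2, the seipin gene of lipid droplet formation, was the most even of them, with 23.0 to 48.3 CPM and an SD of 0.31, or 0.19 without B5176.

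Genes of fatty acid oxidation had a median SD of 0.37 over 12 members, BDH1 apart from the others at 2.52. ACAA2, which carries out the last step of β-oxidation in mitochondria, had 278 to 518 CPM, and the carnitine acetyltransferase CRAT had 166 to 458 CPM, lowest in B4987 and highest in B5090.

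Mitochondrial and ribosomal genes shifted by library as groups. Of 14 genes of oxidative phosphorylation, 12 were lowest in B5165 (the lowest library of 10.4% of all genes of at least 1 CPM) and 9 were highest in B5176 (the highest of 20.5%). Their summed level was 1396 CPM in B5165, 1839.6 in B5169, between 2023 and 3303 CPM in the other 6 libraries below the top, and 3741 in B5176. ATP5MF, a small subunit of ATP synthase, varied most, from 30 CPM in B5165 to 140 in B5176 (SD 0.73), and ATP5PF least, from 40.6 to 84.2 CPM (SD 0.32, and 0.17 without B5165). ATP5F1A had 467 CPM in B5165, 542 in B5169, a median of 760 and 1174 in B5176. Of 20 mitochondrial ribosome genes, 14 were lowest in B5165 and 14 highest in B5176, MRPL9 from 79.3 to 138 CPM and MRPS28 from 6.32 to 19.0 CPM among them. All 10 cytosolic ribosome genes were lowest in B5165, RPL5 at 550.5 CPM against a median of 763 and RPS28 at 260.4 against 368. Of the 10, 6 were highest in B5169 (the highest of 20.7% of all genes of at least 1 CPM).

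These counts held in part under other scalings. With DESeq2 size factors 12, 14 and 9 members of the 3 lists were lowest in B5165, and with total counts 12, 10 and 8. The highest library held for the cytosolic ribosome list, with 6 genes in B5169 by DESeq2 size factors and 7 by total counts. For the other lists B5176 held with DESeq2 size factors, in 9 and 14 genes, but not with total counts, where 6 of the oxidative phosphorylation genes were highest in B5090 and 6 of the mitochondrial ribosome genes in B4987, instead of the 9 and 14 in B5176. The TMM factor of B5176 was 0.838, the smallest of the 9, and with total counts the median gene stood at -0.23 on the log2 scale from its own mean in that library, at 0.16 in B4987 and at 0.11 in B5165. Without B5165, 11 of the 14 oxidative phosphorylation genes were lowest in B5169. In B5176 the lists of cell types stood at -0.61 (fibroblast), -0.40 (skeletal muscle), -0.27 (macrophage), -0.04 (lymphocyte), 0.16 (mural), 0.21 (endothelial) and 0.28 (adipocyte) on the same scale, with TMM, and their part in the mitochondrial and ribosomal levels of that library and of B5165 was not tested. The cytosolic ribosome list had a median SD of 0.31 and the mitochondrial ribosome list of 0.35.

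**Figure D4:**
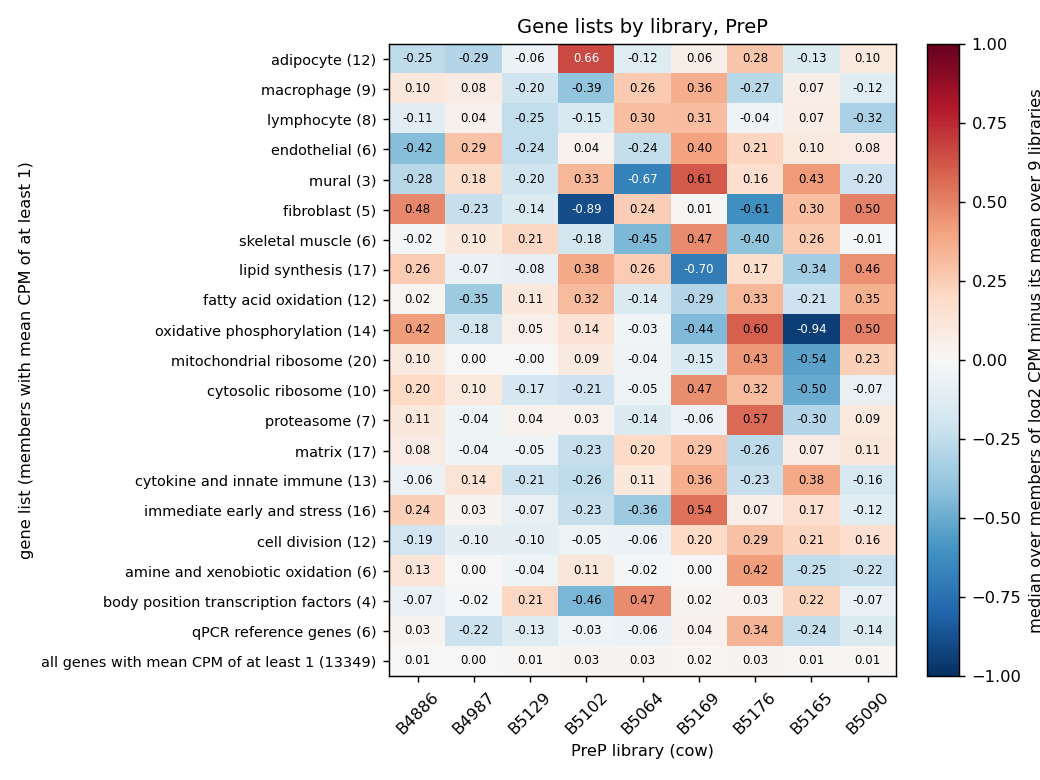
Median over the members of each gene list of log2 CPM minus its mean over the 9 PreP libraries, by library (columns) and list (lines, with the number of members with a mean of at least 1 CPM), TMM scaling; red is above the mean and blue below. Oxidative phosphorylation stands at -0.94 in B5165 and 0.60 in B5176, lipid synthesis at -0.70 in B5169, and the median of all genes of at least 1 CPM lies between 0.00 and 0.03 in every library.

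Genes of the matrix and of its turnover had a median SD of 0.55 over 17 members, and single libraries set the extremes. THBS1, the matricellular protein thrombospondin, had 1175 CPM in B5169, 117 in B5165 and 22.4 to 80.6 in the other 7 libraries, and its SD of 1.56 was 0.69 without B5169. SERPINH1, the collagen chaperone, had 1327 CPM in B5176 and 459 to 702 in the others, and its SD of 0.44 was 0.18 without that library. BMP1, the protease that trims procollagen, had 62.6 CPM in the library labelled B5102 against 98.7 to 128 in the others, and its SD of 0.31 was 0.14 without that library. The stromal genes moved unevenly: LUM, a collagen-binding proteoglycan, had 61.0 CPM in B5165 and 265 in B5090, and PI16, a marker of fibroblast progenitors, had 83.4 CPM in the library labelled B5102 and 487 in B5090.

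Immune genes ranged from even to variable. FCGR3A, an Fc receptor of macrophages and natural killer cells, had 27.9 to 38.6 CPM and an SD of 0.16, the smallest of the macrophage list. LYVE1, found on resident macrophages and lymphatic vessels, had 16.3 CPM in B5176 and 16.5 in the library labelled B5102 against 90.4 in B4886 and 103 in B5064, with an SD of 0.93. FLT4, the lymphatic VEGF receptor, had 2.14 to 15.6 CPM and an SD of 0.93. CD68, a lysosomal protein of macrophages, had 18.8 CPM in the library labelled B5102, 25.8 in B5090, a median of 41.8, 78.4 in B5165 and 100 in B5169. GPNMB, found in lipid-laden macrophages, had 46.7 CPM in B5090 and 80.1 to 131 in the others. The 13 cytokine and innate immune genes of at least 1 CPM had a median SD of 0.59, CSF1 at 59.9 to 240.5 CPM and MYD88 at 63.9 to 114 CPM, both highest in B5169. Of the 13, 4 were highest in B5165 (against 6.97% of all genes of at least 1 CPM) and 6 were lowest in B5176 (against 17.1%). B5169 was the highest library of as many as B5165, namely STING1, MYD88, CSF1 and IL4R (against 20.7%). The summed level of the list was highest in B5169, at 753 CPM, followed by 714 CPM in B5165. SASH3 was the most even lymphocyte gene, with 10.4 to 17.0 CPM.

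Of the 16 immediate early and stress genes, 7 were highest in B5169, which was the highest library of 20.7% of all genes of at least 1 CPM. B5169 was also lowest in 3 of the 16 (TOB1, BCL6 and CRYAB, named after their values were seen), as many as B5064, against 19.6% of all genes. DEPP1, a target of FOXO factors, had 375 CPM there, 114 in B5165, 99.2 in B4987, a median of 39.8 and 10.3 in B5090. DDIT4, an inhibitor of mTORC1, had 236 CPM in B5169 and 195 in B5176 against 69.2 to 116 in the other 7. HSP90AB1, an abundant chaperone, had 548 to 884 CPM and an SD of 0.26. The proteasome list had a median SD of 0.39 over 7 genes, PSMB2 at 72.6 to 127 CPM (SD 0.23, and 0.081 without B5176) and PSMD12 at 12.6 to 53.1 CPM (SD 0.74, and 0.34 without its lowest libraries, B5169 and B5176).

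Cell division genes were scarcely read, 12 of 18 at 1 CPM or more and a median of 2.33 CPM. MKI67, the proliferation antigen Ki-67, had 1.27 CPM in the library labelled B5102 and 9.36 in B5090, and the replication nuclease FEN1 had 10.5 to 17.4 CPM, highest in B5176. Among amine and xenobiotic oxidation genes, 7 of 9 members were kept, at a median SD of 0.46 over the 6 of at least 1 CPM. EPHX1, an epoxide hydrolase, led with 279.7 ± 100.3 CPM (SD, n = 9). GSTM3, a glutathione transferase, had 19.6 CPM in B5169, 26.9 in B4987, a median of 81.7 and 302 in B5064, with an SD of 1.25, while GSTZ1 had 9.13 to 18.4 CPM. MAOB, which breaks down amines, had 51.2 CPM in B5169 and 87.1 to 163 in the other 8, and its SD of 0.46 was 0.27 without B5169.

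Transcription factors that mark position along the body were also compared, since the biopsies came from 1 flank site. HOXA7 had 12.8 to 25.9 CPM with an SD of 0.31 and EMX2 16.5 to 33.6 CPM with 0.43. IRX1 had 1.11 CPM in B4987, 1.27 in B4886, 1.61 in the library labelled B5102 and 2.51 in B5129, and 6.54 to 11.8 CPM in B5176, B5169, B5165, B5064 and B5090, with no library between 2.51 and 6.54 CPM and an SD of 1.37. Of the 11 members 7 were kept and 4 had a mean of at least 1 CPM.

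The question whether adipocyte, stromal and immune genes rise and fall together over the 9 cows was put to 12 genes, in 66 pairs, with exact permutation tests of Pearson's r and Spearman's rho and Benjamini-Hochberg adjustment over the 66. HSD17B12 and CD68 went in opposite directions, with r = -0.86 (exact permutation p = 0.000488, adjusted p = 0.0322) and rho = -0.87 (exact permutation p = 0.00451, adjusted p = 0.130). Without the pair of libraries farthest from the median of HSD17B12, r was -0.76 (exact permutation p = 0.0498), and within the 6-library set -0.72 (exact permutation p = 0.106); the other set held too few libraries for a value. Without the library labelled B5102, r was -0.88 with an adjusted p of 0.0679 by exact permutation, and without that of B5169 -0.85 with 0.116. This was the only pair past the threshold by Pearson's r, and 16 pairs had an unadjusted exact permutation p under 0.05. CD68 was the only macrophage gene among the 12, so the pair speaks for that gene and not for its list. Of the 9 macrophage genes 5 were highest in B5064, where HSD17B12 had 271 CPM, above its median of 194. HAVCR2 was lowest in B5169, where CD68 and LGALS3 were highest. In the library labelled B5102, where HSD17B12 had 359 CPM, 3 of the 9 were lowest, CD68 among them.

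By Spearman's rho 1 other pair passed, HSD17B12 with LUM, at rho = 0.97 (exact permutation p = 0.000165, adjusted p = 0.0109) and r = 0.65 (exact permutation p = 0.0724, adjusted p = 0.25). LUM was the only fibroblast gene among the 12, so the pair speaks for that gene and not for its list. In B5165, where LUM was lowest, TNXB was highest, at 1908 CPM. Of the 5 fibroblast genes 3 were lowest in the library labelled B5102, where HSD17B12 had 359 CPM, while 2, LUM and PI16, were highest in B5090. In the pair of HSD17B12 and LUM the lowest value of HSD17B12, in B5169, lay off the line of the other 8 cows. Without B5169 the r was 0.95 (exact permutation p = 0.000174, adjusted p = 0.0115), without the pair of libraries farthest from the median 0.89 (exact permutation p = 0.00833), within the 6-library set 0.91 (exact permutation p = 0.0236), and without the library labelled B5102 0.62 (exact permutation p = 0.122). CD68 and LUM did not pass, at r = -0.72 (exact permutation p = 0.0280, adjusted p = 0.171) and rho = -0.80 (exact permutation p = 0.0138, adjusted p = 0.130), with r = -0.83 without the pair of libraries farthest from the median of CD68 (exact permutation p = 0.0198) -0.53 within the 6-library set (exact permutation p = 0.294) and -0.74 without the library labelled B5102 (exact permutation p = 0.0338, adjusted p = 0.223).

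The pair PCK1 and HSD17B12 had the highest r of the 66, 0.88, and did not pass (exact permutation p = 0.00667, adjusted p = 0.110; rho = 0.67, exact permutation p = 0.0589, adjusted p = 0.269). It rested on the pair of libraries farthest from the median of PCK1, B5169 and B5165, without which r was 0.21 (exact permutation p = 0.657), and within the 6-library set it was 0.093 (exact permutation p = 0.861). Without the library labelled B5102 it was 0.86 (exact permutation p = 0.0127, adjusted p = 0.140), and without that of B5176 the pair passed, at 0.95 with an adjusted p of 0.0426 by exact permutation. A correlation of GHR with HSD17B12, 0.75 over 9 libraries (exact permutation p = 0.0338, adjusted p = 0.171; rho = 0.83, exact permutation p = 0.00827, adjusted p = 0.130), was 0.69 without the pair farthest from the median (exact permutation p = 0.0853) 0.91 within the 6-library set (exact permutation p = 0.0139) and 0.85 without the library labelled B5102 (exact permutation p = 0.00538, adjusted p = 0.0888).

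**Figure D5:**
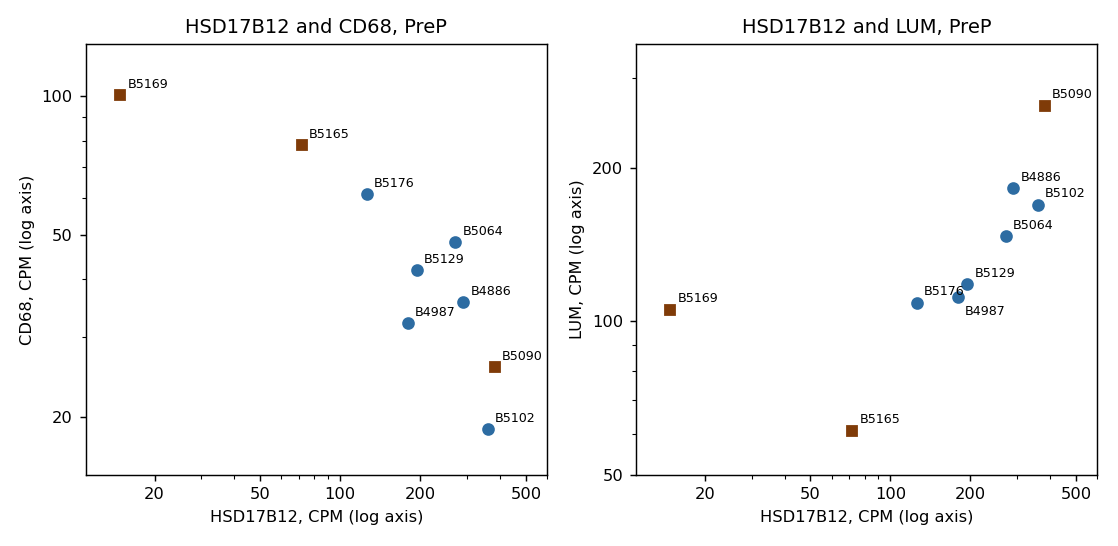
CPM of CD68 (left) and LUM (right) against HSD17B12 in the 9 PreP libraries, 1 point a library named by its cow, both axes log; circles are the 6-library set and squares the 3-library set. CD68 falls from 100 CPM at the lowest HSD17B12 (B5169) to 18.8 CPM in the library labelled B5102, and LUM is highest, at 265 CPM, at the highest HSD17B12 (B5090), with the library of B5169 off the line of the others.

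Whether a cow's level at PreP returned after calving was asked in the 8 cows with all 3 biopsies, by correlating log2 CPM at PreP with the mean of PP1 and PP2 for each gene with a mean of at least 1 CPM, with an exact permutation test over the cows. Of 13349 genes, 0 (0%) passed an adjusted p of 0.05 with a positive r, also with Spearman's rho. An unadjusted p under 0.05 was reached with a positive r by 308 genes and with a negative r by 418 (274 and 438 by rho), r was positive in 40.0% of genes and its median was -0.11. With 8 cows the smallest p is 2.48e-05, so that at least 7 genes would have had to reach it together before any could pass, and the smallest p found was 0.000124. Against PP1 alone 790 genes had a positive r and an unadjusted p under 0.05 and 516 a negative one, and against PP2 alone 308 and 358. Without the cow B5102 the counts were 355 and 431, again with 0 genes passing. Which direction was more frequent depended on the cows, since the counts were 378 and 279 without B5064 and 389 and 365 without B5169. The 6-library set held PreP libraries of 5 of the 8 cows, under the 6 taken here as the least for a correlation, so no value within it is given.

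Of the 103 genes named here that were tested, 2 (1.94%) had a positive r and 5 (4.85%) a negative r at an unadjusted p under 0.05, against 2.31% and 3.13% of all genes tested, shares too close to read anything from the named genes as a group. RBP4 was 1 of the first, with r = 0.90 (exact permutation p = 0.00394, adjusted p = 0.693) and rho = 0.76 (exact permutation p = 0.0368, adjusted p = 0.856), and r was 0.58 without the pair of cows farthest from its median (exact permutation p = 0.238) and 0.97 without B5102 (exact permutation p = 0.000198, adjusted p = 0.623). HSD17B12 was 1 of the others, with r = -0.87 (exact permutation p = 0.00833, adjusted p = 0.793) and rho = -0.71 (exact permutation p = 0.0576, adjusted p = 0.856), and r was -0.70 without the pair of cows farthest from its median (exact permutation p = 0.128) and -0.87 without B5102 (exact permutation p = 0.0125, adjusted p = 0.747). The gene of largest SD of all, ENSBTAG00000019460 without a symbol, had 24.1 to 55.1 CPM in B4886, B5102, B5176, B5165 and B5090 and at most 0.296 CPM in the other 4 libraries.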

How the data were processed

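The authors mapped cleaned reads to bosTau7 with HISAT2 2.1.0 and deposited raw read counts per Ensembl gene from HTSeq 0.6.1, 1 column per biopsy. Strandedness and the annotation release were not given in the sources used here, so reads of overlapping or antisense genes cannot be told apart. Counts of the 9 PreP libraries (15293154 to 20818965 reads) were filtered for at least 3 reads in at least 1 library and scaled by TMM in edgeR 4.0.16 (R 4.3.3); log2 CPM used a prior count of 1. Each cow is 1 biopsy and 1 library, so the SD covers cows, days to calving, biopsy and library together. The labels do not give the day of each biopsy before calving. Counting error was taken as Poisson, and intervals of this kind cover counting error only.

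Symbols came from the study's supplementary gene table, of which 1995 IDs were available and 1863 had a usable symbol; this is an incomplete list ordered by ID. No gene lengths, coordinates or sequences were used. The 107 named genes followed a rule: with a symbol, the 10 of highest mean CPM, the 10 of largest SD at 1 CPM or more, the 10 of smallest SD at 10 CPM or more, the highest 2 and the most and least variable member of each of 24 gene lists, the 12 genes of the pair tests, and 2 genes without a symbol each for level and SD; RRP12 and the 4 genes shown for the library labelled B5102 were added after their values were seen. The values of 1 of the named genes are not reported here. The members and lists were chosen with earlier results of these data known. Correlations were tested by exact permutation in Python 3.11.15 (362880 pairings for 9 libraries and 40320 for 8 cows, two-sided) with Benjamini-Hochberg adjustment. Only the same-cow test was tried on simulated counts, with planted differences between cows of SD 2 on the log2 scale. In these data 76 genes had an SD over 2, so the simulation does not show whether smaller differences would have been found. Alternatives were DESeq2 1.42.0 size factors and variance stabilised values, total counts, other filters, a prior count of 0.25 and leaving out each library.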

Additional observations from a re-analysis of the deposited data

Results flagged for a closer look

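Of 112 measures of the 9 PreP libraries (107 genes and 5 library measures), 13 had their highest or lowest library so far from the next that the gap exceeded 0.493 of the whole range (Dixon's criterion for 9 values). Chance passes about 1 in 20 independent measures, or 5.6 of 112, but many of these genes were chosen for a large or small spread over the same libraries, so the counts cannot be set against each other. On the log2 CPM scale, the library of B5176 stood above the others in 4 genes: TAGLN2 at 10.37 (next 9.91), PSMB2 at 6.99 (next 6.48), SERPINH1 at 10.37 (next 9.45) and FEN1 at 4.12 (next 3.74). The library of B5169 stood apart in THBS1, highest at 10.20 (next 6.87), and in MME, lowest at -0.75 (next 2.61). It also had the lowest median Spearman correlation with the other libraries, 0.950 (next 0.963). The library of B5064 was lowest in KCNJ8 at 3.34 (next 4.4) and SRPK3 at -0.68 (next 0.59), that of B5090 in GPNMB at 5.55 (next 6.32), and that of B5129 in LTF at -1.06 (next 0.07). The library labelled B5102 was lowest in BMP1 at 5.97 (next 6.63) and highest in SLC4A1 at -2.15 (next -3.23), a gene with 3 reads in that library and a mean far under 1 CPM, so this gap is not read. The cause of these gaps was not tested.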

How the results depend on the processing

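The number of genes with a mean of at least 1 CPM stayed within 1.5 times under every alternative run. The number with an SD over 1 among all 17722 genes, 2946, was 4675 with a prior count of 0.25, 662 with edgeR's filterByExpr and 462 on variance stabilised values; leaving out each library gave 2597 to 3138. With a mean of at least 1 CPM it was 1081, and 783 to 1215 when each library was left out, but 561 without the libraries of B5169 and B5176, an alternative chosen after seeing the data. The median SD over all genes, 0.52 (jackknife SE 0.052), was 0.39 with filterByExpr and 0.37 on variance stabilised values, and 0.48 to 0.53 without each library. The share of variance on the first principal component, 29.95% (jackknife SE 5.89), was 43.9% with filterByExpr and 26.0 to 33.2% without each library. No gene passed the same-cow test under any of its alternatives. Of the 66 pairs, 1 passed; 2 did with total counts, the second being RBP4 with HSD17B12, and 0 to 3 when each library was left out (0 without that of B4886, B4987, B5165, B5090 or the library labelled B5102). The pairs differed: HSD17B12 with CD68 passed without B5064 or B5176, PCK1 with ACAT2 without B5129, HSD17B12 with LUM without B5169, and PCK1 with HSD17B12 and ATP5MC3 with LUM without B5176. The causes were not tested. For the 107 named genes 1282 of 1283 alternative values of mean log2 CPM lay within 1 SD, and 1257 of 1283 SDs within 1.5 times. Of the 27 values outside these limits, 7 were without B5169, 6 without B5176 and 6 with total counts.

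Levels were not compared between groups, so no fit with a replicate block was made here, and the same-cow correlations match libraries by cow in themselves. Reads limit genes under 1 CPM, whose spread is near counting error. One biopsy per cow cannot tell cow from days to calving, biopsy and library, and the symbols cover 9.68% of the genes kept.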
